A study of Rattus norvegicus with 69 samples.

Results

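The comparison set 3 samples of spermatogonia plus early spermatocytes against 4 samples of Sertoli cells, 7 of the 69 rat samples measured. Membership was taken from the sample titles. Both preparations came from untreated Sprague Dawley rats and were hybridised to Affymetrix expression arrays as biotin-labelled RNA. The germ cell preparation came from rats 18 to 20 days old. It was separated by centrifugal elutriation of enzymatically dispersed testes, with a purity that the labels put between 85% and 95% for the germ cell fractions. The Sertoli cells came from rats 55 to 60 days old and are labelled as about 85% pure. Age and isolation therefore differ between the groups in the same way as cell type, and the 3 cannot be told apart. The labels do not say whether these samples came from separate animals, so every p-value below measures the spread between these samples, which may be partly technical. In RNA from many cells, fewer cells of a type and less RNA per cell cannot be told apart.

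Sertoli cells are the somatic cells that line the seminiferous tubule. They hold the germ cells between them, seal the adluminal compartment with tight junctions, secrete carrier proteins, protease inhibitors and growth factors, and engulf residual bodies and dying germ cells. Spermatogonia are the dividing germ cells on the tubule's basement membrane, and their descendants enter meiosis as preleptotene, leptotene and zygotene spermatocytes. In the juvenile testis these early stages make up the germ line, before pachytene spermatocytes and spermatids become abundant. The comparison asks which RNA separates dividing and early meiotic germ cells from the somatic cell that supports them, and which RNA both preparations carry.

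Signals are linear intensities that the authors scaled per array. Median signals per array lay between 30.9 and 32.1 in the Sertoli samples and were 43.7, 46.9 and 58.2 in germ cell replicates 1, 2 and 3. Replicate 3 of the germ cells also had the highest 3'/5' signal ratio of the actin control probe sets among these 7 samples, 3.64. The ratio was 1.54 and 1.88 in the other germ cell samples and lay between 1.26 and 1.67 in Sertoli cells. Its mean correlation with the other samples of its group was 0.911, against 0.935 and 0.946 for the other 2 germ cell samples and 0.957 to 0.964 for the Sertoli samples. The part of RNA quality in the results was not tested. Without this array, 2939 probe sets were higher and 2044 were lower, in place of the 3071 and 2209 given next. Pachytene spermatocytes (4 samples) and round spermatids (4 samples) from adult rats of the same study serve below as a reference for germ cell preparations of later stages.

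Of 16363 probe sets that exceeded a signal of 43.7 (the table median) in 3 or more of the 7 samples, 3071 were higher in the germ cell preparation (18.8%) and 2209 were lower (13.5%), at a Benjamini-Hochberg adjusted limma p under 0.05 and a difference of at least 2-fold. Counted as genes, each by its brightest probe set, 1662 of 9963 were higher (16.7%) and 1305 were lower (13.1%), and 29.8% were called in either direction. The samples of the groups did not overlap for 61.2% of probe sets and 61.4% of genes, so a lack of overlap alone is common here. Differences are given as germ cells minus Sertoli cells on the log2(signal + 5.11) scale, which understates the change of dim genes. Their median over all genes was 0.07. Every count of a gene list below is to be read against those shares. The higher genes were mostly dim in Sertoli cells: 995 of the 1662 had a mean Sertoli signal below 43.7. Of the 1305 lower genes, 403 had a mean germ cell signal below it. A gene below 43.7 in all samples of a group entered only through the other group, so the filter fixed its direction. The median higher gene had a signal of 117 in the germ cell preparation, 35.3 in Sertoli cells, 56.0 in pachytene spermatocytes and 57.8 in round spermatids. The median lower gene had a signal of 75.5 in the germ cell preparation and 279 in Sertoli cells, and 51.7 and 47.0 in the later germ cells.

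**Figure D1:**
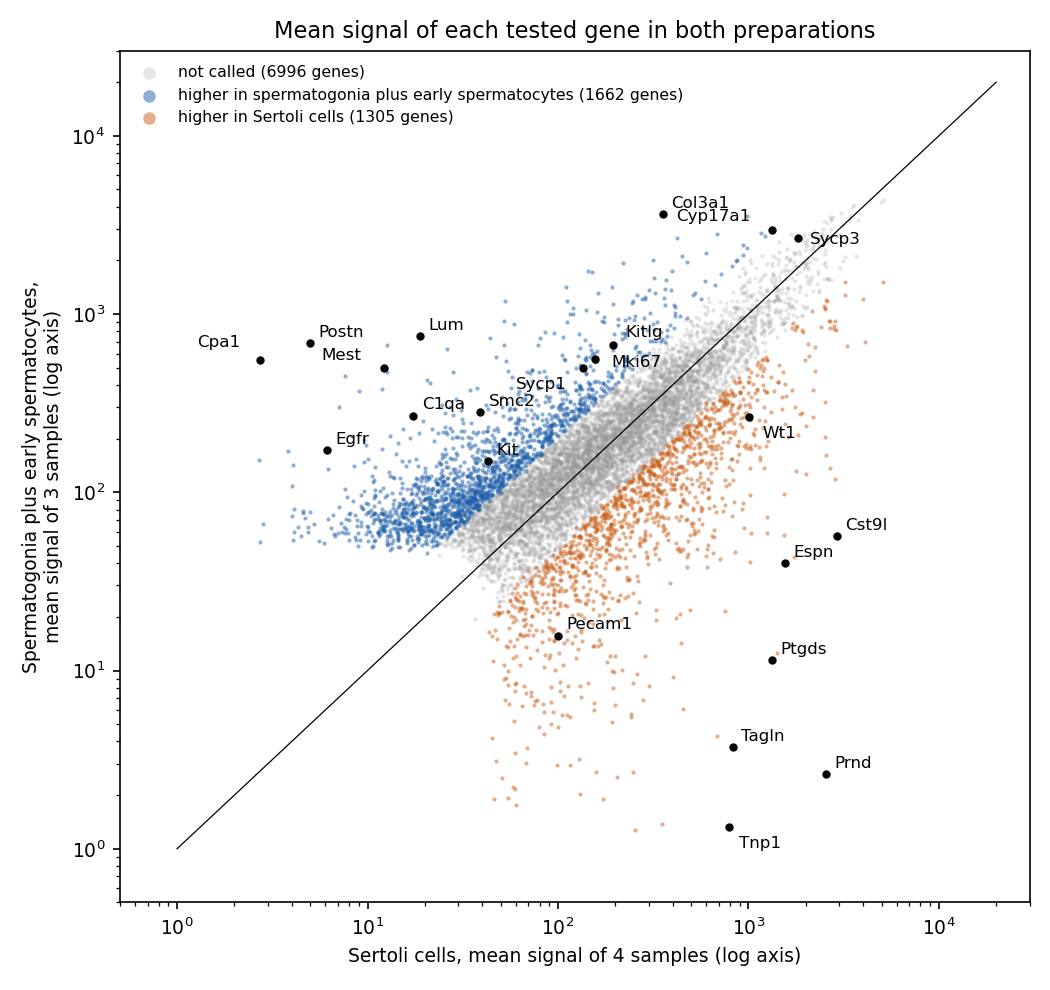
Mean signal of each of the 9963 tested genes in Sertoli cells (horizontal, 4 samples) and in spermatogonia plus early spermatocytes (vertical, 3 samples), both on log axes. Each point is a gene, coloured by its call, the line marks equal signal, and named genes are in black. Among the named genes, Prnd, Tnp1 and Tagln lie farthest below the line, and Cpa1 and Postn farthest above it.

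The largest differences were not those of textbook spermatogonial genes. Among the 12 genes with the largest positive differences, Postn, Lum, Vit, Efemp1, Gpc3, Clec3b and Col6a6 encode proteins of the extracellular matrix or cell surface. Postn, which encodes periostin of connective tissue matrix, read 570, 756 and 735 in the germ cell samples and 0.465, 16.5, 1.77 and 1.24 in the Sertoli samples, a difference of 6.33 ± 0.421 (SE; adjusted p = 2.25e-06). Its signal was no higher than 2.72 in any pachytene or round spermatid sample. Lum, the collagen-binding proteoglycan lumican, read 661, 789 and 811 against 4.27, 62.9, 6.54 and 1.40, and differed by 5.67 (6.40 without Sertoli replicate 2). The 12 were taken from called genes whose samples did not overlap between groups, with LOC, RGD and AABR names left out. Their lack of overlap is therefore no result. Cpa1, known as a pancreatic digestive carboxypeptidase, read 522, 664 and 476 against 4.08, 1.75, 3.23 and 1.80, a difference of 6.16 ± 0.220 (SE; adjusted p = 1.67e-07). Mest, an imprinted gene of growing embryonic tissue, read 493, 573 and 432 against 15.2, 8.33, 10.7 and 14.6. Both genes were at or below 21.7 in the later germ cells. The other members of the 12 were Cldn1, Nrk and Hbb.

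On the Sertoli side the largest difference among genes chosen in the same way belonged to Prnd, which encodes doppel, a prion-like protein of the testis. It read 2772, 3338, 2133 and 2025 in Sertoli cells and 0.862, 2.53 and 4.48 in the germ cell preparation, a difference of -8.37 ± 0.213 (SE; adjusted p = 3.13e-08). Ptgds, the lipocalin-type prostaglandin D synthase secreted by Sertoli cells, read 1317, 1472, 1416 and 1144 against 12.6, 2.35 and 19.2. Espn, which encodes espin, the actin-bundling protein of the ectoplasmic specialization, read 1564, 1833, 1318 and 1496 against 47.9, 44.1 and 28.7. Lack of overlap was again a condition for entering the 12 on this side. Cst9l, a cystatin-like gene, lay between 2393 and 3869 in Sertoli cells and did not exceed 75.8 in the germ cell preparation (difference -5.57). The same 12 held Reep1 (-5.31) and P2rx2 (-5.42), the smooth muscle gene Tagln (-6.47), Cpe (-6.00), Rrad (-5.45), and the spermatid genes Tnp1 (-6.64), Prm1 (-6.37) and Tnp2 (-5.09), described with their cell types below.

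The transcription factors by which Sertoli cells are recognised did not move as a unit. Of 15 tested, 5 were lower in the germ cell preparation and 4 were higher, with a median difference of -0.39. Wt1, the zinc finger factor that maintains Sertoli identity, read 1180, 1038, 931 and 903 in Sertoli cells and 311, 254 and 222 in the germ cell preparation. The samples did not overlap, with a difference of -1.93 ± 0.147 (SE; adjusted p = 4.78e-06). Nr0b1, the orphan receptor DAX-1, read 808, 804, 815 and 726 against 125, 166 and 123 (-2.48). Gata6, Etv5 and Hes1 were also lower, by -2.28, -2.82 and -1.30. Wt1 was present in the germ cell preparation above its level in later germ cells, where it did not exceed 57.2. Gata4, a zinc finger factor of testicular somatic cells, read 544, 609 and 352 in the germ cell preparation, 901, 646, 770 and 599 in Sertoli cells and at most 63.1 in later germ cells. Its groups overlapped, and its difference of -0.55 (adjusted p = 0.0365) was under 2-fold. Dmrt1, which Sertoli cells and spermatogonia both express, did not pass the test (0.09, 95% interval -0.25 to 0.43). Nr5a1, the steroidogenic factor SF-1, had 0.05 (95% interval -0.39 to 0.50) by its brighter probe set and -3.40 by its other probe set, so the 2 disagreed. The higher members were Nr2f2 (2.04), Tcf21 (2.00), Lhx9 (1.72) and Id2 (1.58, but 0.07 by its other probe set), of which Nr2f2 and Tcf21 are known from interstitial and mesenchymal cells. Nr2f2 read 834, 1217 and 712 against 202, 129, 294 and 278. All 7 samples were above all 8 later germ cell samples in 10 of the 15 genes, against 32.9% of all genes. Sox9 and Fshr, which would also mark Sertoli cells, were not analysed here.

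Sertoli secreted proteins showed the widest spread of any list, from -8.37 for Prnd to 2.43 for Inhba. Of 38 tested, 20 were lower in the germ cell preparation and 6 were higher, with a median of -1.13. Serpina5, a serine protease inhibitor, read 2483, 3536, 2411 and 2281 in Sertoli cells and 195, 101 and 115 in the germ cell preparation (-4.27). Cst12, a cystatin gene, differed by -3.90. Other genes stood well above the later germ cells in both preparations. Clu, the secreted chaperone clusterin, read 4178, 7213, 4373 and 4687 against 1715, 1633 and 1186 (-1.74; its other probe set gave -0.40, not called), while later germ cells did not exceed 392. Shbg, the androgen-binding protein, read 1947, 2576, 2314 and 2105 against 628, 513 and 298 (-2.27). Ctsl, the cathepsin that Sertoli cells release at set stages of the cycle, read 2755, 3964, 2410 and 2186 against 872, 921 and 794 (-1.67). For these 3 genes, every germ cell sample lay between the Sertoli samples and the later germ cells. Amh, which immature Sertoli cells secrete, read 75.4, 50.7 and 40.3 in the germ cell preparation and 71.6, 50.2, 64.2 and 46.9 in Sertoli cells and did not pass the test (-0.09, 95% interval -0.63 to 0.46). The lipid carrier gene Apoe (0.31) and the inhibitor gene Timp1 (0.65) were not called. The higher members included Inhba, Ctss (2.13), Kitlg and Cxcl12. Of these, Ctss encodes a macrophage cathepsin and is also on the leukocyte list.

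Junction genes followed a similar split: 14 of 34 were lower in the germ cell preparation, 3 were higher, and the median was -0.59. Gja1, the gap junction protein connexin 43, read 1928, 2297, 1490 and 1926 in Sertoli cells and 303, 265 and 268 in the germ cell preparation (-2.74 ± 0.151 SE; adjusted p = 7.35e-07). Cldn11, the claudin of the Sertoli cell tight junction, read 2424, 3792, 2532 and 2668 against 952, 947 and 833 (-1.62). Nectin2, the adhesion molecule on the Sertoli side of the contact with spermatids, differed by -3.35. In all 3 genes the groups did not overlap. Cldn1, another claudin, went the other way: it read 435, 653 and 326 in the germ cell preparation and 9.96, 14.7, 9.37 and 16.3 in Sertoli cells, a difference of 4.71, with 5.37 and 4.48 by its other probe sets. Nectin1 was higher by 2.36. The third higher gene, Fscn1 (1.05), lost its call without Sertoli replicate 2 (0.81) or germ cell replicate 2 (0.98). The call was also lost under quantile normalization (0.42), with a pseudocount of 20 (0.74) and with median centring. Vim (-0.07), the intermediate filament vimentin, was not called, and Ctnnb1 (-0.15) was not called either, although its other probe sets gave -1.24 and 1.66.

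Genes of cell division were higher in the germ cell preparation or not called. Of 42 G2 and M phase genes, 21 were higher and 0 were lower (median 0.99), and without germ cell replicate 1 there were 19 and 1. Of 40 DNA replication genes, 7 were higher and 0 were lower (median 0.56). Of the 42, 4 had all 7 samples above all later germ cell samples, and in 28 the Sertoli samples lay below all of those, against 26.0% of all genes tested. The difference between the 2 lists was not tested.

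Promoters of some of these genes are printed because all called members of both lists were higher, although the replication share was near that of all genes. They were taken from RefSeq (GRCr8, 250 bases before to 50 after the gene start), which gave one for 37 of the 43 measured G2 and M phase genes. Letters searched on both strands were CCAAT, the sequence bound by NF-Y; TTTGAA or TTCGAA, the cell cycle genes homology region; and GGCGGGAA or TTTGGCGC, 2 E2F-type sites. Matches are in capitals and include the reverse complements, so that ATTGG is a CCAAT on the other strand. The promoters are those of Hmmr (chr10:25665166-25665465, minus strand), Mki67 (chr1:199952544-199952843, minus strand) and Ccnb2 (chr8:79981609-79981908, minus strand) from mitosis, and Gins1 (chr3:160184670-160184969, plus strand) and Cdt1 (chr19:67528999-67529298, plus strand) from replication, chosen among higher genes because they hold these letters.
Hmmr: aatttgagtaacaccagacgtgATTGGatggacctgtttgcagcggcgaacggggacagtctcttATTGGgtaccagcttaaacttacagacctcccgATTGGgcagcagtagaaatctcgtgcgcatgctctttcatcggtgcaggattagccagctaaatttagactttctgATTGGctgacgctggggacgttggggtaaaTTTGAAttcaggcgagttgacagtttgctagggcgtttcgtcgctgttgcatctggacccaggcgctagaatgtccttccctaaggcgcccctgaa
Mki67: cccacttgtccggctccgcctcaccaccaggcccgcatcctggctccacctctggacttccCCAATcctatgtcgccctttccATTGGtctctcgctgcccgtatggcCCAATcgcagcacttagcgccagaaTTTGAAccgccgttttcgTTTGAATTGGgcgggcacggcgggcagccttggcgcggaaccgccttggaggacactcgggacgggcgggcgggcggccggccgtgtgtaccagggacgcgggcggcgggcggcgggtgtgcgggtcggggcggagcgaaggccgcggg
Ccnb2: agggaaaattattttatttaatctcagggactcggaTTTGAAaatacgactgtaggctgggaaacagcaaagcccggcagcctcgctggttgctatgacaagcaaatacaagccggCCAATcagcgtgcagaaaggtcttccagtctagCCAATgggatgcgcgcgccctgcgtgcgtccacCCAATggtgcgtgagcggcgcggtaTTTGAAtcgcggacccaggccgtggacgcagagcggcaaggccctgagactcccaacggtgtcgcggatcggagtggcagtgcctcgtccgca
Gins1: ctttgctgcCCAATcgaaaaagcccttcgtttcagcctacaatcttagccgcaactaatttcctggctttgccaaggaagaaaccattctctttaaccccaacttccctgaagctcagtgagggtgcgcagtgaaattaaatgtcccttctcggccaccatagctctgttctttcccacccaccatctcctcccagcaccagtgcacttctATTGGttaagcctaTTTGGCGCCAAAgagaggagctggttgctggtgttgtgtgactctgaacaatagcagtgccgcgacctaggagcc
Cdt1: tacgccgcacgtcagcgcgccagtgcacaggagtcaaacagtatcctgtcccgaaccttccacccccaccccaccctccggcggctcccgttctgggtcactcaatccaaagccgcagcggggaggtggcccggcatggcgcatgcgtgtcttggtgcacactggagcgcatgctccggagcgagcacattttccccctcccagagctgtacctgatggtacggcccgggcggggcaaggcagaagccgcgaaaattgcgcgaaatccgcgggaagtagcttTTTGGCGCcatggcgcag

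CCAAT occurred in 29 of the 37 G2 and M phase promoters (78.4%), against 37.3% of 11734 promoters of genes with a probe set and 37.7% of all 27457 promoters in the table. The homology region letters occurred in 27 (73.0%), against 14.0% and 19.5%, and both in 24 (64.9%), against 5.75% and 7.83%. Among the 17 promoters of called genes, CCAAT occurred in 15 (88.2%) and the homology region letters in 12 (70.6%). Of 36 DNA replication promoters, 14 held an E2F-type match (38.9%), against 4.33% of genes with a probe set, and 6 held the homology region letters (16.7%). In Hmmr there were 4 CCAAT and 1 homology region match, in Mki67 4 and 2, in Ccnb2 3 and 2. Overlapping matches in Mki67 and Gins1 form a single run of capitals. In Gins1 and Cdt1 the letters in capitals included 2 and 1 E2F-type matches. These are counts of letters and do not show that a factor binds.

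Among the mitotic genes, Smc2, a condensin subunit, read 289, 325 and 227 in the germ cell preparation and 43.4, 29.8, 29.0 and 54.0 in Sertoli cells (2.72 ± 0.231 SE; adjusted p = 9.02e-06). Aurkb, the kinase of the chromosomal passenger complex, read 221, 174 and 180 against 40.9, 29.0, 53.5 and 52.1 (2.03). Mki67, the proliferation antigen that coats mitotic chromosomes, read 608, 628 and 441 against 147, 145, 137 and 194 (1.81). The groups did not overlap in any of these, and Mki67 in Sertoli cells was above the filter of 43.7 in all 4 samples. Hmmr, a spindle protein, read 172, 152 and 188 against 44.8, 35.4, 38.6 and 44.0 (1.94). Ccnb2, a mitotic cyclin, read 496, 391 and 358 against 158, 170, 175 and 151 (1.30). Later germ cells were higher in the summed signal of the 43 measured genes. It was 10020 to 12048 in the germ cell preparation, 16832 to 19990 in pachytene spermatocytes and 13542 to 15311 in round spermatids. All germ cell samples exceeded all later germ cell samples for 7 of 42 genes (16.7%), against 43.3% of all genes. Aurkb lay between 258 and 398 in pachytene spermatocytes and round spermatids. Plk1, the polo kinase, lay between 374 and 800 there, against 108 to 150 in the germ cell preparation. Ccnb1, the other B-type mitotic cyclin, read 346, 336 and 277 in the germ cell preparation, 129 to 177 in Sertoli cells and 51.6 to 89.9 in later germ cells. Its other probe set gave 0.87, and its difference of 1.02 fell short of 2-fold without Sertoli replicate 1 (0.94) or 2 (0.98) or germ cell replicate 1 (0.96) or 2 (0.98). Bub3, a spindle checkpoint protein, did not pass the test (0.11, 95% interval -0.16 to 0.39).

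In the replication list, Mcm10, an origin firing factor, read 111, 138 and 130 in the germ cell preparation and 51.4, 40.7, 56.7 and 59.9 in Sertoli cells (1.21 ± 0.185 SE; adjusted p = 0.000345). Cdc45, part of the replicative helicase, read 249, 232 and 223 against 95.6, 87.6, 127 and 104 (1.15; 1.58 and 0.91 by its other probe sets, the latter not called). Gins1, another helicase subunit, read 71.6, 77.1 and 83.9 against 30.8, 33.8, 38.7 and 33.8 (1.07). Cdt1, the licensing factor, read 108, 96.5 and 72.9 against 35.2, 40.6, 53.4 and 37.7 (1.06; 0.99 without Sertoli replicate 1 and 0.94 without germ cell replicate 1). These differences were all close to 2-fold, with no overlap between groups. Quantile normalization ended the calls of Gins1 (0.68), Cdt1 (0.70) and Pole2, a polymerase epsilon subunit (0.84 in place of 1.17). Pcna, the sliding clamp, differed by 0.04 with an interval of -0.21 to 0.28, well inside 2-fold.

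Spermatogonial genes differed in both directions. Of 19 tested, 3 were higher in the germ cell preparation, 5 were lower, and the median was 0.05. The shares, 15.8% and 26.3%, stand against 16.7% and 13.1% of all genes. The groups did not overlap for 11 of the 19, against 61.4% of all genes. Kit, the receptor of differentiating spermatogonia, read 160, 184 and 107 in the germ cell preparation and 38.8, 45.4, 45.9 and 41.4 in Sertoli cells, a difference of 1.66 ± 0.207 (SE; adjusted p = 9.66e-05). Gfra1, a GDNF co-receptor of undifferentiated spermatogonia, read 94.1, 78.1 and 117 against 33.9, 28.9, 53.4 and 43.8 (1.19). It lay between 61.4 and 98.5 in the later germ cells, which overlaps the germ cell preparation. Ret, its signalling partner, read 131, 75.9 and 52.8 against 31.7, 24.1, 40.7 and 33.0 (1.22), and lost its call without germ cell replicate 1 (0.89, adjusted p = 0.0218). Gfra1 fell below 2-fold under quantile normalization (0.91), and Ret did so as well (0.72). Several names on the list were lower in the germ cell preparation. Uchl1, a ubiquitin hydrolase used as a spermatogonial marker, read 558, 433 and 363 against 1079, 1406, 1099 and 1141 in Sertoli cells (-1.39). Itga6, a laminin receptor subunit, read 146, 76.2 and 87.3 against 389, 353, 338 and 356 (-1.80; -1.63 and -0.87 by its other probe sets, the latter not called). Etv5 (-2.82), Id4 (-1.03) and Foxo1 (-1.16) were lower too. The call of Foxo1 was lost without germ cell replicate 3 (-0.69), and that of Id4 without the same sample (-0.97) or Sertoli replicate 3 (-0.91). The other probe sets of Id4 gave -1.84 and -0.21, the latter not called. Cd9 (0.26) and Tex101 (-0.40) overlapped between groups. Ddx4, Dazl and Stra8 were not analysed here.

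Genes of the meiotic chromosome axis and of recombination gave 2 higher of 14 and 0 lower, with a median of 0.43. Sycp1, the transverse filament of the synaptonemal complex, read 566, 499 and 429 in the germ cell preparation and 156, 119, 67.0 and 198 in Sertoli cells (1.93 ± 0.295 SE; adjusted p = 0.000334). Its range in pachytene spermatocytes was 184 to 296, below every sample of the germ cell preparation. Tex15, needed for meiotic recombination, read 693, 492 and 517 against 216, 228, 182 and 292 (1.29), and 33.2 to 69.2 in pachytene spermatocytes. For both genes the germ cell preparation was the highest of the 4 cell preparations. Sycp3, the lateral element protein, read 2104, 2626 and 3323 against 1646, 2040, 1367 and 2219, overlapped, and was not called (0.56). Sycp2, its partner, read 637, 537 and 527 against 353, 263, 186 and 427 and was not called (0.93), although it passed without Sertoli replicate 4 (1.11) or 1 (1.02). Stag3, the meiotic cohesin subunit, read 700, 600 and 415 against 617, 569, 628 and 707 (-0.17). Among 11 germ granule and piRNA pathway genes, 0 were higher and 1 was lower (median -0.04). Tdrd1 read 1120, 934 and 1072 against 878, 865, 846 and 864 (0.27). Piwil2, a PIWI protein, read 666, 696 and 520 against 412, 397, 441 and 498 (0.51). Tex19.2, the lower gene, read 305, 253 and 241 against 918, 1186, 940 and 745 (-1.80). As a check of the germ cell label, Kit, Sycp1 and Tex15 were higher, but the spermatogonial and meiotic lists as wholes had shares of higher genes (15.8% and 14.3%) near the 16.7% of all genes. Meiotic and germ granule RNA was read in the Sertoli samples as well.

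**Figure D2:**
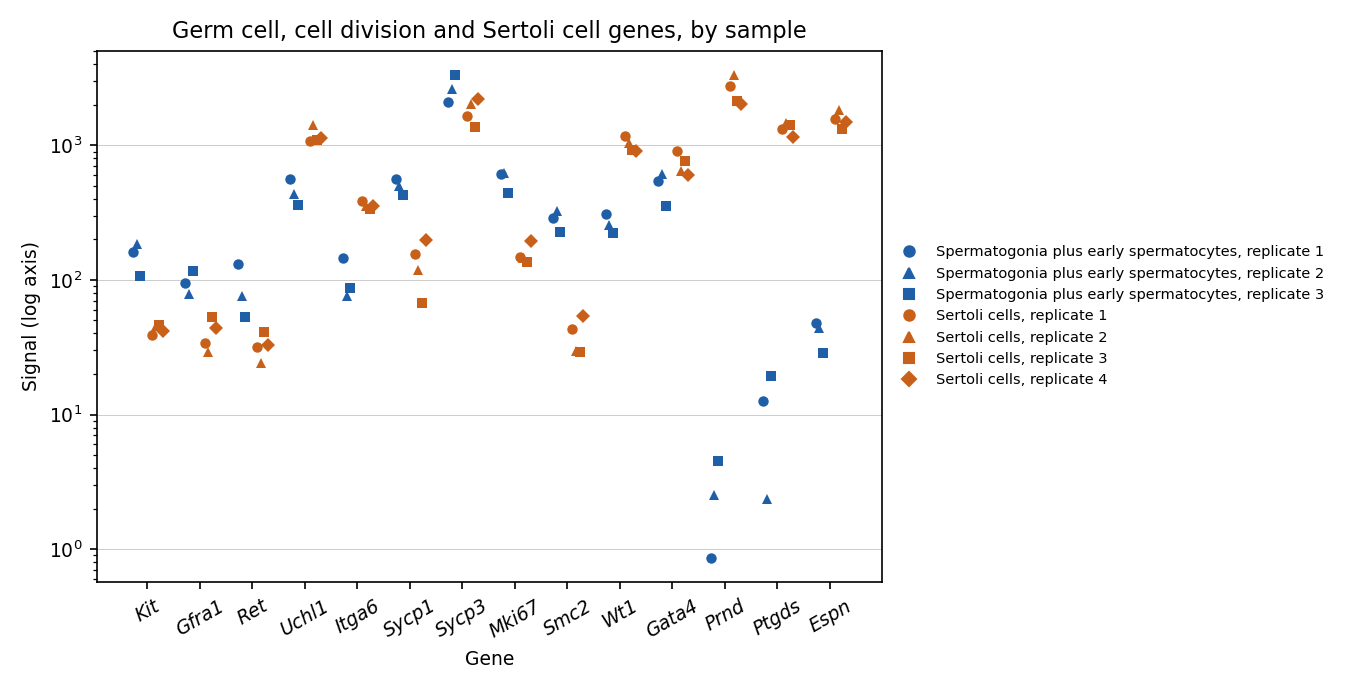
Signal (log axis) of 14 germ cell, cell division and Sertoli cell genes in each of the 3 spermatogonia plus early spermatocyte samples (blue) and 4 Sertoli cell samples (orange). Marker shapes give the replicate. Kit, Sycp1, Mki67 and Smc2 separate upward, Uchl1, Itga6, Wt1, Prnd, Ptgds and Espn separate downward, and Sycp3 and Gata4 overlap.

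Genes of DNA methylation and germline chromatin had 6 of 24 higher and 1 lower (median 0.46). The 3 dioxygenases that oxidise methylated cytosine were all higher. Tet1 read 60.9, 70.5 and 45.4 in the germ cell preparation and 5.47, 6.10, 8.04 and 15.9 in Sertoli cells (2.23), and was at most 12.5 in later germ cells. Tet3 read 112, 111 and 106 against 19.5, 24.7, 40.5 and 36.8 (1.74). Tet2 read 149, 153 and 191 against 79.7, 63.8, 71.8 and 81.6 (1.09; 0.98 without germ cell replicate 3). No samples overlapped between groups for these. All Sertoli samples of Tet1 and Tet3 lay below the signal filter, so the filter fixed the direction of both. The direction of Tet2 was not fixed in this way. Hells, a chromatin remodeller needed for DNA methylation, read 436, 299 and 261 against 112, 87.7, 96.8 and 142 (1.54), with at most 23.2 in later germ cells. Uhrf1, which brings the maintenance methyltransferase to replicating DNA, differed by 1.30, and Suz12, a Polycomb subunit, by 1.67. Dnmt1 (0.58), Dnmt3a (0.52) and Dnmt3b (0.41) were not called. Mga was lower (-1.14), but not without germ cell replicate 3 (-0.84).

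**Figure D3:**
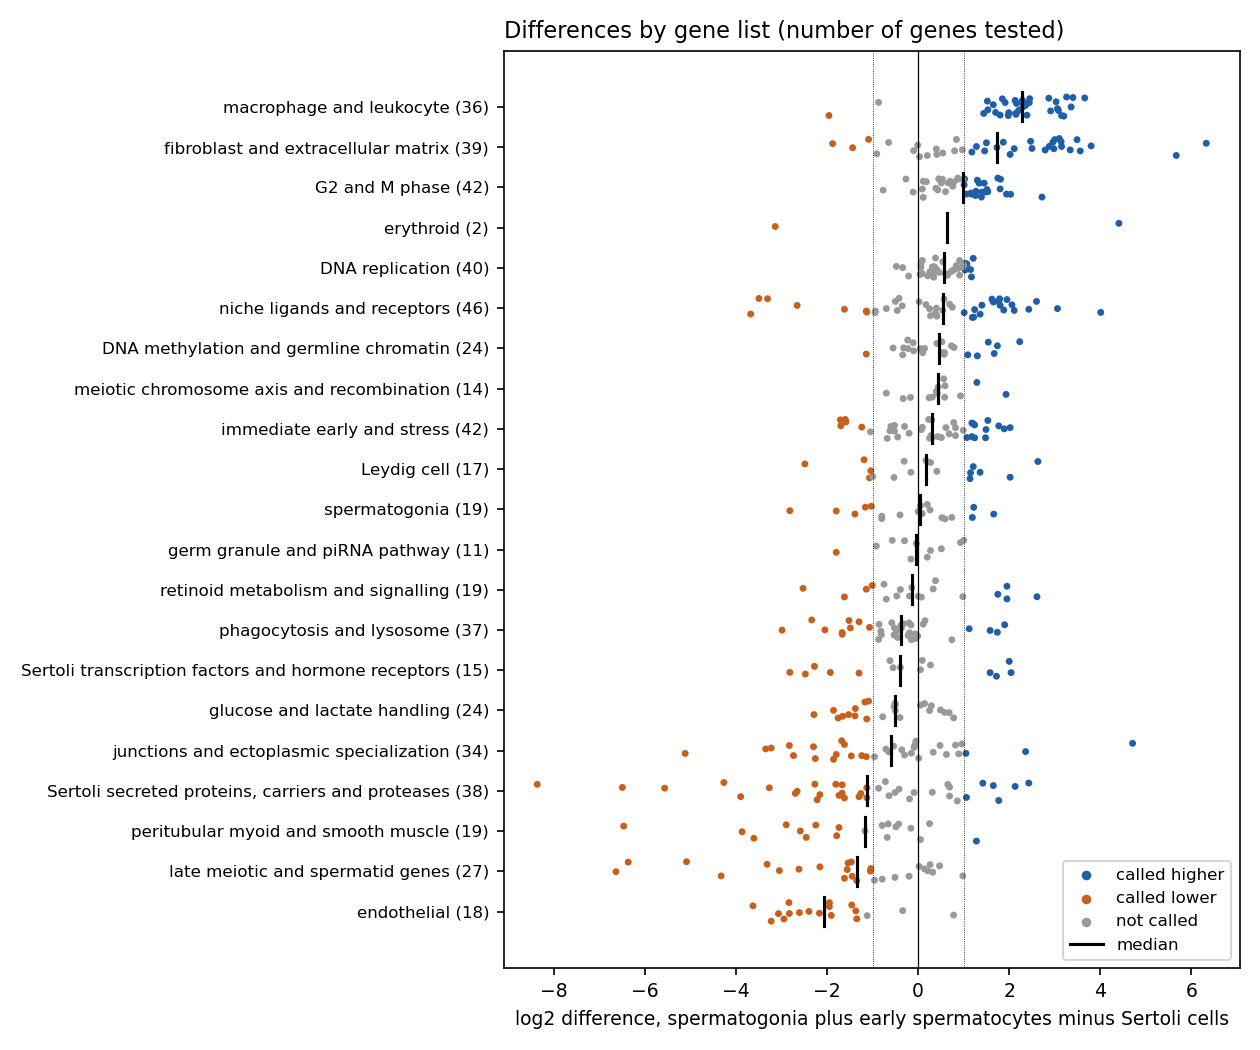
Difference between spermatogonia plus early spermatocytes and Sertoli cells (log2 of signal + 5.11) for each tested gene of 21 lists, ordered by median. Each point is a gene coloured by its call, the black bar is the list median, and dotted lines mark 2-fold. Macrophage and leukocyte genes have the highest median (2.29) and endothelial genes the lowest (-2.06), while spermatogonial genes lie at 0.05.

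Both preparations gave signal for genes known from cells that neither label names, to an extent that differed by list. Leydig cell genes were read well above the later germ cells in both. Of 17 tested, 6 were higher, 4 were lower, and 13 had all 7 samples above all 8 later germ cell samples. The summed signal of the 17 was 13664, 17786 and 18942 in the germ cell preparation and 11072, 14400, 12754 and 14177 in Sertoli cells, against 1358 to 1673 in pachytene spermatocytes and 2041 to 2367 in round spermatids. Cyp17a1, the steroid 17-alpha-hydroxylase, read 2256, 3004 and 3650 against 1098, 1302, 1294 and 1602 (1.15; 0.99 and no longer called without germ cell replicate 3), and at most 43.4 in later germ cells. Star (0.27), Cyp11a1 (-0.31) and Gsta1 (0.17), which act in steroid synthesis or detoxification, were not called. Insl3, a hormone of mature Leydig cells, was lower: it read 796, 1086 and 692 against 1421, 2017, 1870 and 1862 (-1.07; -0.93 without germ cell replicate 3). Hsd11b1, which interconverts glucocorticoids and marks adult Leydig cells, read 129, 177 and 228 against 885, 1261, 941 and 936 (-2.49). Pdgfra, a growth factor receptor of Leydig progenitors and other mesenchyme, read 869, 1244 and 962 against 168, 194, 143 and 139 (2.63). Lhcgr, the luteinizing hormone receptor, was higher by 2.02.

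Macrophage and leukocyte genes had the largest share called higher of the 21 lists: 34 of 36 tested were higher in the germ cell preparation (94.4%), 1 was lower, and the median was 2.29. The summed signal of 41 measured genes was 11503, 13532 and 14411 against 3524, 3935, 3338 and 3822. C1qa, a complement subunit made by macrophages, read 292, 309 and 204 against 20.7, 26.1, 7.54 and 15.1 (3.66 ± 0.307 SE; adjusted p = 8.26e-06). Cd68, a macrophage lysosomal protein, read 180, 234 and 110 against 7.73, 10.2, 14.1 and 15.6 (3.36). Ptprc, the pan-leukocyte antigen CD45, read 97.6, 130 and 145 against 11.2, 13.6, 12.3 and 4.70 (3.08). No samples overlapped for these 3, and the Sertoli samples lay below the filter of 43.7. These genes were thus tested only through the germ cell samples, which fixed their direction. Such genes count in the 94.4% share. The exceptions were Cd8a, which was lower (-1.96), and Mrc1, the macrophage mannose receptor, which read 462, 624 and 442 against 914, 998, 920 and 876 (-0.87, not called; -1.03 and lower without germ cell replicate 2). All germ cell samples exceeded all later germ cell samples for 30 of the 36 genes, and all Sertoli samples did so for 10 (27.8%). Over all genes tested the shares were 43.3% and 41.1%. The MHC class II genes on the list, which antigen-presenting cells express, rose with them, for example RT1-Da by 2.44.

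Fibroblast and matrix genes were higher in 24 of 39 and lower in 3 (median 1.73). Col1a1, the main fibrillar collagen chain, read 1754, 2011 and 1451 in the germ cell preparation and 107, 157, 143 and 166 in Sertoli cells (3.56). Col3a1, its partner in loose connective tissue, read 2584, 3717 and 4646 against 245, 473, 315 and 390 (3.34). Dcn, the proteoglycan decorin, read 1589, 1961 and 2499 against 238, 611, 178 and 242 (2.79). The groups stood well apart, and the Sertoli samples were in turn above all later germ cell samples for 32 of the 39 genes (82.1%, against 41.1% of all genes). The lower genes were Lama1, a laminin chain of the tubule's basement membrane (-1.88), Ccn2 (-1.44) and Fbln1 (-1.09). Hbb, a globin of red blood cells, read 1172, 799 and 1594 against 28.6, 39.0, 60.5 and 81.9 (4.41). Alas2, the erythroid enzyme of haem synthesis, went the opposite way and read 82.3, 76.4 and 76.8 against 773, 856, 726 and 596 (-3.14). Only these 2 erythroid genes of 7 measured were tested, and Hba-a1 was not analysed here.

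Endothelial, smooth muscle and spermatid genes were higher in the Sertoli preparation. Of 18 endothelial genes, 15 were lower in the germ cell preparation and 0 were higher (median -2.06). Ramp2 (0.78), a receptor activity modifier, was the member nearest to a call in the other direction and passed without Sertoli replicate 4 (1.13). Pecam1, the endothelial adhesion molecule, read 55.2, 54.5, 135 and 157 in Sertoli cells and 15.7, 27.8 and 3.46 in the germ cell preparation (-2.40, adjusted p = 0.00213). Cldn5, the endothelial claudin, read 184, 228, 666 and 821 against 30.3, 31.2 and 52.6 (-3.23). Sertoli replicates 3 and 4 were the higher samples in both genes. The summed signal of 23 endothelial genes was 1921, 1922, 4290 and 5870 in Sertoli replicates 1 to 4 and 859, 979 and 1039 in the germ cell samples. Of 19 peritubular and smooth muscle genes, 9 were lower and 1 was higher (median -1.17). Tagln, an actin-binding protein of smooth muscle, read 469, 621, 981 and 1231 against 4.55, 4.30 and 2.34 (-6.47). The filter fixed the direction of Tagln in the same way. Myh11, smooth muscle myosin, read 820, 928, 1215 and 1557 against 173, 204 and 160 (-2.59). Sertoli replicates 3 and 4 were again the higher ones. Acta2, smooth muscle actin, read 709, 228, 1181 and 1462 against 327, 379 and 266, overlapped and was not called (-1.17, adjusted p = 0.0701), but was lower without Sertoli replicate 2 (-1.72).

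Late meiotic and spermatid genes were lower in 16 of 27, with 0 higher and a median of -1.35. Tnp1, a transition protein of elongating spermatids, read 1117, 1365, 391 and 275 in Sertoli cells and 0.895, 1.08 and 2.02 in the germ cell preparation (-6.64 ± 0.489 SE; adjusted p = 3.94e-06). Prm1, a protamine, read 1770, 2432, 851 and 620 against 10.5, 1.90 and 25.3 (-6.37). All germ cell samples of Tnp1 and Prm1 lay below 43.7, so the filter fixed the direction of both. Odf1, a protein of the sperm tail, read 1336, 1722, 625 and 396 against 31.6, 29.0 and 61.0 (-4.33). In each of these Sertoli replicates 1 and 2 were higher than 3 and 4, the reverse of the order of the vascular and muscle genes. Round spermatids read 3992 to 4843 for Tnp1. Genes of this list that begin earlier in meiosis were closer. Ldhc, the germ cell lactate dehydrogenase, read 798, 718 and 717 against 1017, 1173, 1029 and 1034 (-0.51, not called), and Hspa2, a meiotic chaperone, 903, 720 and 622 against 841, 980, 842 and 763 (-0.20, not called). Crem (0.98) was not called, although another of its probe sets was higher (1.22), and it passed without Sertoli replicate 4 (1.16), Sertoli replicate 3 (1.05) or germ cell replicate 1 (1.21) or 2 (1.03).

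Immediate early and stress genes, which cells induce rapidly after a stimulus, were high in both preparations. Of 42 tested, 12 were higher in the germ cell preparation, 5 were lower, and 31 had all 7 samples above all later germ cell samples. Their summed signal was 30070, 38414 and 28787 against 24787, 26508, 28534 and 31172, and 5032 to 8162 in the later germ cells. Fos read 1389, 2138 and 1482 against 1152, 1201, 1412 and 1106 (0.43, not called). Klf4, a Krüppel-like factor, read 2138, 2969 and 3352 against 752, 583, 685 and 701 (2.02). Egr3 was higher by 1.53. Klf6 was higher by its brightest probe set (1.89) and by another (1.09), but a further one gave 0.03. Gadd45a, a DNA damage response gene, read 231, 201 and 177 against 702, 687, 507 and 606 (-1.60). Dusp5 (-1.71), Gadd45g (-1.59), Nfkbia (-1.24) and Hspb1 (-1.70) were the other lower genes. Hspb1 lost its call without Sertoli replicate 3 (-1.44, adjusted p = 0.0667), germ cell replicate 1 (-1.65, adjusted p = 0.0584) or 2 (-1.74, adjusted p = 0.0532). Whether RNA of other cells plays a part in the differences above was not tested.

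**Figure D4:**
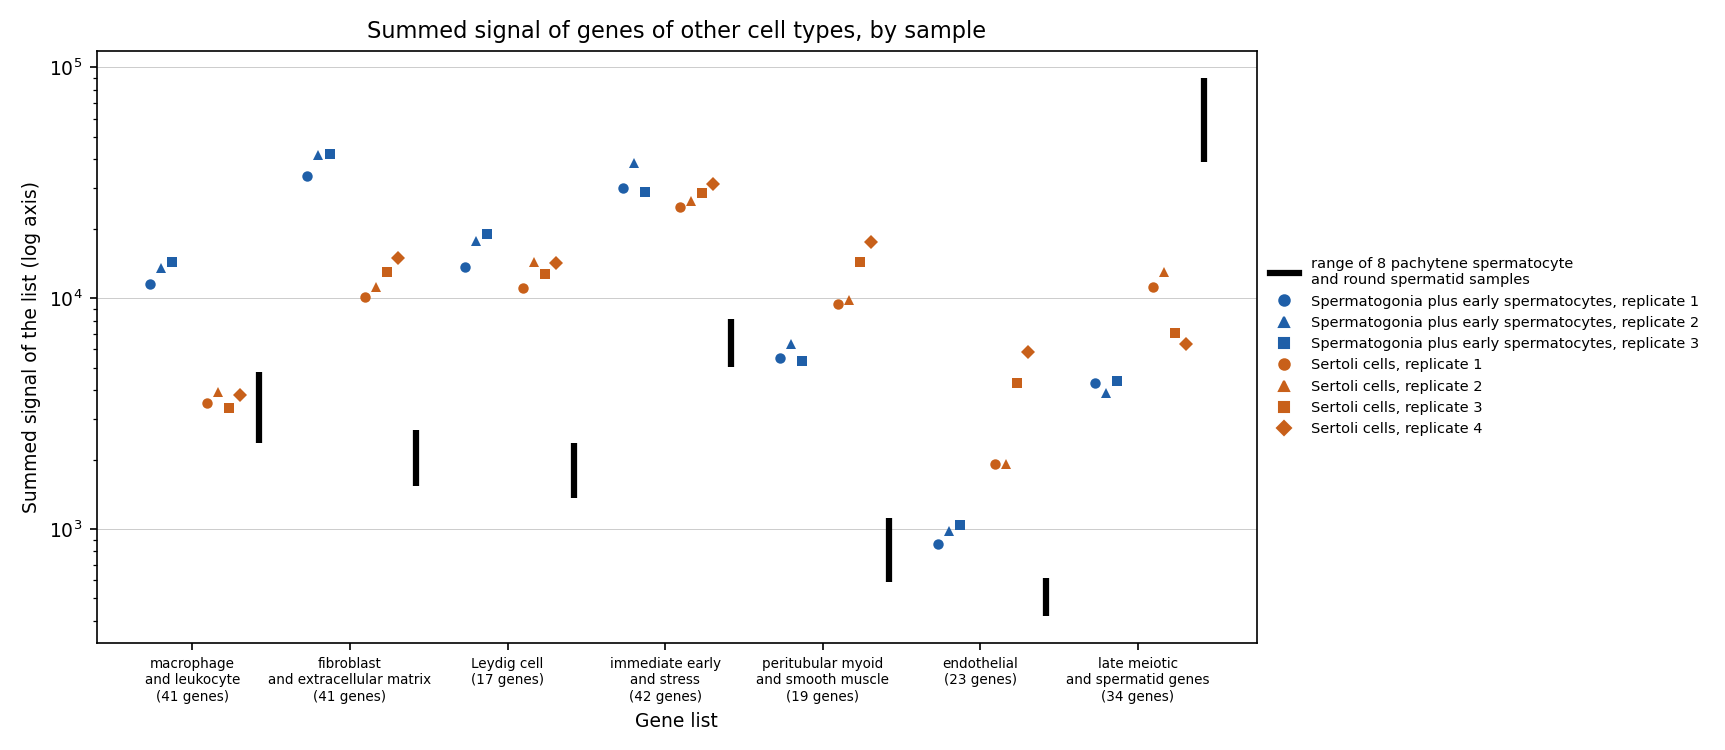
Summed signal (log axis) of the measured genes of 7 lists in each spermatogonia plus early spermatocyte sample (blue) and Sertoli cell sample (orange), with marker shapes for replicates. Black bars give the range of 8 pachytene spermatocyte and round spermatid samples. Leukocyte and fibroblast sums are higher in blue, endothelial, myoid and spermatid sums are higher in orange, and Leydig and immediate early sums overlap, all 7 samples lying above the black bars.

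Ligands and receptors of the spermatogonial niche were higher in 20 of 46 and lower in 7 (median 0.55). Sertoli cells are known to signal to spermatogonia through KIT ligand, GDNF and members of the activin and inhibin family. Kitlg, the KIT ligand, was itself higher in the germ cell preparation: it read 576, 774 and 654 against 170, 227, 152 and 229 in Sertoli cells (1.77 ± 0.174 SE; adjusted p = 2.27e-05) and at most 39.7 in later germ cells. Its other probe sets gave 0.86 and 0.95 and were not called. Gdnf was too dim to test, at 5.36, 6.01 and 12.5 against 9.61, 16.8, 3.01 and 4.21. The inhibin and activin subunits split. Inha, the alpha subunit of inhibin, read 439, 365 and 221 against 1186, 1056, 1054 and 815 (-1.62). Inhbb, the beta B subunit, read 72.0, 71.2 and 66.5 against 509, 445, 528 and 404 (-2.66). Inhba, the beta A subunit, was the reverse, at 143, 128 and 174 against 17.6, 12.2, 25.9 and 47.2 (2.43).

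A chemokine pair split in opposite ways. Cxcl12 read 458, 696 and 731 in the germ cell preparation and 150, 192, 220 and 218 in Sertoli cells (1.65), though its other probe sets gave 0.76 and -1.32. Cxcr4, its receptor, read 51.9, 51.9 and 40.8 against 665, 714, 594 and 446 (-3.50), with -3.08 and -4.20 by its other probe sets. Tgfb1, a growth factor, read 4.41, 2.29 and 2.22 against 115, 78.2, 100 and 100 (-3.68), and Bmpr2, a BMP receptor, differed by -3.31. Egfr, the epidermal growth factor receptor, read 146, 195 and 174 against 7.68, 9.53, 4.49 and 2.73 (4.01), and later germ cells read 21.4 to 45.0. Csf1r (3.06), the macrophage growth factor receptor, is also on the leukocyte list. Gfra2, a co-receptor for neurturin, read 199, 190 and 221 against 25.9, 26.9, 39.4 and 26.5 (2.60). Fgfr2 (2.06), Fgfr1 (1.95), Smo (1.88) and Met (1.79) were higher as well. Igf1 was higher by its brightest probe set (2.11) but not by its others (0.53 and 0.27).

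Retinoic acid made and degraded within the tubule governs entry of spermatogonia into differentiation and meiosis. Of 19 genes of retinoid metabolism and signalling, 4 were higher and 4 were lower (median -0.14). Aldh1a3, a retinaldehyde dehydrogenase, read 528, 695 and 642 against 208, 182, 136 and 115 (1.95). Aldh1a1, the related enzyme of Sertoli cells, read 837, 1097 and 849 against 1448, 1758, 1593 and 1235 (-0.70, not called). Neither gene's groups overlapped. Cyp26a1, which degrades retinoic acid, read 18.5, 27.5 and 20.8 against 124, 141, 175 and 171 (-2.53). Cyp26b1, the other degrading enzyme, read 1555, 2271 and 2182 against 1115, 1260, 931 and 765 and was just under 2-fold (0.98), passing without Sertoli replicate 1 (1.03) or 2 (1.09) or germ cell replicate 1 (1.15). Crabp2, a retinoic acid carrier, was higher by 2.61. Stra6, a retinol transporter, was lower by its brightest probe set (-1.62), while its 4 others, between -0.82 and -0.01, were not called. Of the receptors, Rarb (1.75) and Rxrg (1.95) were higher and Rara was lower (-1.01). The call of Rara was lost without Sertoli replicate 1 (-0.97) or 3 (-0.87), or germ cell replicate 1 (-0.98) or 2 (-0.89).

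Sertoli cells take up glucose and export lactate to germ cells. Of 24 genes of that pathway, 0 were higher in the germ cell preparation and 10 were lower (median -0.52). Slc16a1, a monocarboxylate transporter, read 1221, 1430, 1251 and 1094 in Sertoli cells and 404, 336 and 356 in the germ cell preparation (-1.76). Ldhb, a lactate dehydrogenase subunit, read 2225, 3314, 2635 and 2431 against 828, 1008 and 892 (-1.53). Pfkp, a phosphofructokinase, read 415, 398, 352 and 312 against 84.7, 110 and 98.5 (-1.86). No sample overlapped for these. The glucose transporters Slc2a1 (-1.38) and Slc2a3 (-1.17), the phosphofructokinase gene Pfkl (-1.66) and the aldolase gene Aldoc (-2.29; -1.69 without germ cell replicate 3) were also lower. Ldha, the other lactate dehydrogenase subunit, was not called (0.58).

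Phagocytic clearance is the last Sertoli function listed. Of 37 phagocytosis and lysosome genes, 9 were lower, 4 were higher, and the median was -0.38. Of the 3 TAM receptors, which recognise dying cells, 2 were lower in the germ cell preparation. Tyro3 read 564, 515, 492 and 391 in Sertoli cells and 72.6, 43.5 and 57.1 in the germ cell preparation (-2.99). Mertk, the receptor most closely tied to germ cell engulfment, read 73.4, 59.5, 73.0 and 101 against 32.7, 10.1 and 7.70 (-2.05). Axl (-0.15), the third receptor, was not called. The probe sets of Gas6, their ligand, disagreed: the brightest gave -1.52, and the others gave 1.68, called higher, and 0.35. Mfge8, which bridges phosphatidylserine to integrins, read 1239, 1307, 1111 and 1087 against 240, 240 and 211 (-2.34 ± 0.118 SE; adjusted p = 4.95e-07). The higher genes, Ctsc (1.90), Gusb (1.74), Ctsz (1.58) and Glb1 (1.12), encode lysosomal hydrolases. Lamp1, a lysosomal membrane protein, read 1080, 1111 and 1113 against 1093, 1409, 1358 and 1244 (-0.20, not called), while another of its probe sets was higher (1.39).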

How the data were processed

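Total RNA of 69 rat samples was hybridised to Affymetrix arrays, and the authors deposited MAS5 signal intensity per probe set, per the submitters' processing notes; the scaling target and any detection calls are not given in the sources used here. The 2%-trimmed mean was 99.993 on every one of the arrays compared, so each array had been scaled. Of 31099 probe sets, 57 controls were left out. The fit used log2(signal + 5.11), the 10th percentile of the table, for probe sets with signal above 43.7, the table median, in at least 3 of the 7 samples. limma 3.58.1 (lmFit, eBayes with a variance trend; R 4.3.3) compared 3 with 4 samples, with Benjamini-Hochberg adjustment over 16363 probe sets and calls at 0.05 and 2-fold. The script was tested on simulated data. Symbols came from the platform table, updated through RefSeq (20826 probe sets with 1 symbol, 436 with several, 9780 with none), and a gene was read by the probe set with the highest mean. The number of arrays limits the precision.

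Named genes were the 12 largest called differences in each direction, the largest called members of each list in each direction, and the brightest uncalled members, with defining markers. The 12 were limited to genes whose samples did not overlap between groups and whose symbol was not a LOC, RGD or AABR name. A further 48 genes were added after their values were seen. Genes and lists were chosen with earlier results of these data known. Alternatives covered the pseudocount, the filter, centring, quantile normalization, the samples fitted, array weights, the variance trend, a replicate block, a 4-fold threshold and leaving out each sample. The labels do not say whether equal replicate numbers share an animal or day, and the main fit did not pair them.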

Additional observations from a re-analysis of the deposited data

Results flagged for a closer look

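Within the 4 Sertoli samples, 5 of 153 genes examined had a sample whose gap to the others exceeded Dixon's 95% critical value, while chance alone flags about 1 in 20. Pttg1, the securin of mitosis, read 248 in replicate 4 against 326 to 337 in the others. Nr0b1 read 726 in replicate 4 against 804 to 815. Ldhc read 1173 in replicate 2 against 1017 to 1034. Bsg, the chaperone of lactate transporters, read 2209 in replicate 2 against 1502 to 1573. Ier3, an immediate early gene, read 2028 in replicate 1 against 2721 to 2797.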

How the results depend on the processing

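At the 2-fold threshold, none of the 240 genes examined was called in opposite directions under any alternative run, and 199 kept their side of the threshold wherever they were tested (206 of the 240 were tested with signals above 100). Over the 7 fits that left out a sample, 2939 to 3182 probe sets were higher and 2044 to 2363 were lower, so no single sample moved either count by 1.5 times. Without the filter on dim probe sets 7817 were higher and 2870 lower, and with signals above 100 only 1230 were higher and 1666 lower. A 4-fold threshold left 762 higher and 697 lower. The filter therefore sets how many of the calls are higher: 58.2% in the main setting, 73.1% without it and 42.5% with the stricter filter. Quantile normalization gave 2422 higher and 2583 lower (48.4% higher), and median centring 2882 and 2365 (54.9%). With quantile normalization and without germ cell replicate 3, an alternative chosen after seeing the data, there were 2386 and 2390.

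With the replicate block, 3182 were higher and 2292 lower. Same-numbered samples had residual correlations of 0.181, -0.018 and 0.106, and 2 of 3 germ cell samples correlated best with their own number. These values do not settle whether the numbers are pairs, and the main fit did not pair them. Among lists, spermatogonial genes had 1 higher and 3 lower with a pseudocount of 20, DNA replication genes had 2 higher there, and 6 endothelial and 8 spermatid genes were lower with the stricter filter, where fewer genes were tested. Array signals carry no depth, and differences of dim genes are limited by the added 5.11.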

Other observations

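Growth-related genes, many of them imprinted, were looked up after Mest and Gpc3 were seen among the largest differences, so their counts carry no test. Of 28 names, 25 had a probe set and 23 were tested, of which 16 were higher in the germ cell preparation and 0 were lower, with a median difference of 1.35. Mest (4.87) and Gpc3 (4.80), which prompted the list, are themselves in this count and this median. Of all genes tested, 16.7% were higher. Meg3, an imprinted noncoding RNA, read 866, 933 and 393 against 43.7, 31.4, 45.2 and 55.9 in Sertoli cells. Plagl1, a zinc finger factor of fetal growth, read 901, 839 and 716 against 243, 93.4, 268 and 321, with at most 7.60 in later germ cells. Cdkn1c, a cyclin-dependent kinase inhibitor, read 354, 437 and 364 against 70.1, 78.3, 92.0 and 76.3. Slc38a4 (2.38), Dlk1 (1.48) and H19 (1.26; 0.93 and not called under quantile normalization, and not called with a pseudocount of 20) were higher, and Igf2, which read 269, 238 and 133 against 115, 86.3, 256 and 227, overlapped between groups and was not called (0.38).

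Cpa1 and Mest, both among the 12 genes that rose most, are near neighbours in the RefSeq gene order of GRCr8. Of the 8 genes looked up on each side of Mest, not all had a probe set, and Tsga13 and Plxna4 were not tested. Cpa4 was also higher (1.60), at 54.2, 57.0 and 115 against 16.4, 11.2, 39.3 and 20.7. All its Sertoli samples lay below the signal filter, which fixed its direction. It read 67.6 to 71.8 in pachytene spermatocytes and 73.1 to 85.5 in round spermatids, within the range of the germ cell preparation. Its call was lost under quantile normalization without germ cell replicate 3 (0.83, adjusted p = 0.0614). Cep41, which lies between Cpa1 and Mest, was not called (95% interval 0.48 to 1.52). Its brightest probe set was called at 1.05 to 1.12 without Sertoli replicate 3 or 4 or germ cell replicate 1 or 2. Its other probe sets gave -0.01 and -0.06 and were not called. Copg2 (-0.21), Tmem209 (0.02) and Mkln1 (-0.07) were not called either. Podxl, an endothelial and podocyte gene further along, was lower (-2.61).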
